A study of Mus musculus with 2 samples.

Results

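The 5 hairpins described here, Mir126a, Mir126b, Mir130a, Mir221 and Mir222, are microRNA genes known from endothelial cells. They were taken by name from 2202 annotated microRNA genes whose reads were counted in adrenal gland. Small RNA was sequenced in 2 libraries of 1 group, from whole adrenal glands of male B6CASTF1/J mice aged 25 days, with no treatment given in the labels. B6CASTF1/J mice are offspring of a cross between the inbred strains C57BL/6J and CAST/EiJ. Each library has its own animal number in the labels, but the donor entry is shared. SDs therefore measure how far these libraries lie apart, for biological or technical reasons. There is no second group, and differences below are between the libraries, not between conditions.

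A microRNA is cut from a hairpin transcript, and the short mature strand guides the silencing complex to messenger RNAs that pair with its seed, bases 2 to 8. miR-126 is made from within Egfl7, a gene of endothelial cells, and in mice it supports blood vessel integrity, with Spred1 and Pik3r2, inhibitors of growth factor signalling, among its known targets. miR-130a is known from human endothelial cells as a repressor of homeobox factors that restrain vessel growth. miR-221 and miR-222 are made from a shared precursor locus and are known in human endothelial cells as repressors of the receptor KIT. Mir130a, Mir221 and Mir222 are also made by other cell types. The adrenal gland is richly supplied with blood through sinusoids lined by fenestrated endothelium, which drain from cortex to medulla.

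Mature strands of the 5 hairpins are shown because their seeds set the groups used below. Each is written 5′ to 3′ as RefSeq lists it for GRCm38.p6, with the seed in capitals. All 5 hairpins were matched there by symbol. RefSeq also lists miR-130a-5p and miR-221-5p, which are not shown, and no other strand searched shares their seeds. For Mir126a it lists miR-126a-3p alone. Counts below cover the whole hairpin, so they are not counts of the strand shown.
miR-126a-3p: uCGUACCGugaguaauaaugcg
miR-126b-5p: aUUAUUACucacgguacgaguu
miR-126b-3p: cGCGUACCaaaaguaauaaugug
miR-130a-3p: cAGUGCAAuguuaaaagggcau
miR-221-3p: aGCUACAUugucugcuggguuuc
miR-222-3p: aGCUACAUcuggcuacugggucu
The strands miR-221-3p and miR-222-3p begin with the same 8 bases and are identical at 11 of 23 positions counted from the 5′ end. The seed of miR-126a-3p occurred at base 2 to 8 of no other mature strand among 1679 names searched, and neither did the 2 seeds of Mir126b.

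The precursors of Mir126a and Mir126b are shown next because they lie on opposite strands of the same stretch of DNA, which decides what each count column can hold. The listed mature strands are in capitals.
Mir126a (chr2:26591357-26591429, plus strand): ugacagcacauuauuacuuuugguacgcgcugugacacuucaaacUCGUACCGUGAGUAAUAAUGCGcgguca
Mir126b (chr2:26591363-26591420, minus strand): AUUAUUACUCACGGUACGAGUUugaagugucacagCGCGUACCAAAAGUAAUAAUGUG
Mir126b is the reverse complement of bases 7 to 64 of the 73-base Mir126a hairpin, so 6 bases of Mir126a before it and 9 after it are free of overlap. The miR-126b-5p strand lies opposite 19 bases of miR-126a-3p.

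In the GENCODE M21 annotation on mm10, Mir126a (ENSMUSG00000065540.1) lies within Egfl7 on the same strand, inside an exon of 1 of its 19 annotated transcripts, a retained-intron form, and outside the exons of the others. Mir126b (ENSMUSG00000105799.1) is antisense to Egfl7. Both hairpins also lie in an intron of Gm20532, a protein-coding gene on the strand of Mir126a. Mir130a (ENSMUSG00000065484.1, chr2:84741115-84741178, minus strand) overlaps no other annotated gene, and the nearest gene on its strand, Gm19426, lies 990 bases away. Mir221 (ENSMUSG00000065422.1, chrX:19146294-19146388) and Mir222 (ENSMUSG00000065471.1, chrX:19146893-19146971) lie 504 bases apart on the minus strand, outside other annotated genes. Of 1005 RefSeq hairpins, none shares 20 bases on its own strand with any of the 5.

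Replicate 1 had 3588361 sense counts on microRNA genes and replicate 2 had 4541373. Levels are sense counts per 1000000 of these totals (CPM), and 3 counts, the number a count of 0 allows, were worth 0.836 CPM in replicate 1 and 0.661 CPM in replicate 2. Intervals are exact at 95% (Clopper-Pearson). They cover counting error alone and take reads as separate molecules, which cannot be checked for reads that carry no molecular identifier. The libraries stand apart in Mir122, a hairpin of hepatocytes, which took 0.0892% of the replicate 1 counts and 19.8% of the replicate 2 counts. That hairpin lowers every other CPM value of replicate 2, so the main results between the libraries are given with and without it in the totals. Levels were not divided by hairpin length, since the library selected molecules under 30 bases, near the size of a mature strand. How efficiently each sequence enters such a library was not measured.

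Mir126a dominated the endothelial hairpins and was among the most abundant microRNA genes of the gland. It had 62826 CPM (62575 to 63077) in replicate 1 and 60799 CPM (60579 to 61019) in replicate 2, which placed it at rank 2 and rank 3 of the 2202 genes. Reads mapped to several places, 31.6% of input in replicate 1 and 27.0% in replicate 2, are in no gene row. Hairpins with several copies can therefore rank too low. Its mean was 61812 CPM ± 1433 (SD, n = 2). The hairpin ranked just below it by mean, Mir378a of Ppargc1b, had 60419 CPM ± 2731, and the gap of 1393 CPM between these hairpins was smaller than either SD. The hairpin ranked above it, Mirlet7g, had 87956 CPM ± 11985.

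Mir130a came next among the 5 hairpins, with 4389 CPM (4321 to 4458) in replicate 1 and 6594 CPM (6520 to 6669) in replicate 2, at ranks 36 and 26. Its mean of 5492 CPM ± 1559 (SD, n = 2) did not differ beyond that spread from its neighbours Mir744, at 5843 CPM ± 422, and Mir98, at 4968 CPM ± 1127. Mir221 had 686 CPM (660 to 714) in replicate 1 and 742 CPM (717 to 768) in replicate 2, with a mean of 714 CPM ± 39.5. Its partner Mir222 had 134 CPM (122 to 147) in replicate 1 and 236 CPM (223 to 251) in replicate 2, with a mean of 185 CPM ± 72.4. Mir126b was close to the limit of counting, with 7 reads or 1.95 CPM (0.784 to 4.02) in replicate 1 and 40 reads or 8.81 CPM (6.29 to 11.99) in replicate 2. The order Mir126a, Mir130a, Mir221, Mir222, Mir126b was the same in both libraries, and the values of no neighbouring hairpins in that order overlapped.

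**Figure D1:**
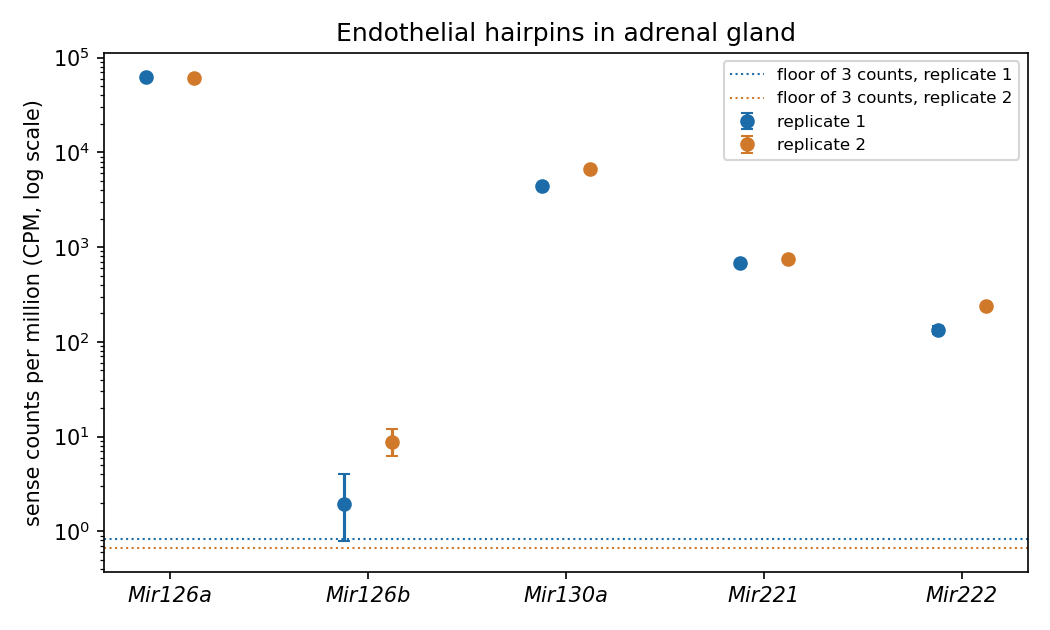
Level of each of the 5 hairpins on a log axis of CPM, in replicate 1 (blue) and replicate 2 (orange), with exact 95% intervals, most of them smaller than the points. Dotted lines mark 3 counts in each library. Mir126a lies at 62826 and 60799 CPM, and the interval of Mir126b in replicate 1 reaches down to the dotted line of that library.

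The 5 hairpins held 6.80% (6.78 to 6.83) of the sense counts in replicate 1 and 6.84% (6.81 to 6.86) in replicate 2. Mir126a made up 92.3% of their reads in replicate 1 and 88.9% in replicate 2. The other hairpins held 0.521% of all counts in replicate 1 and 0.758% in replicate 2. The near-equal shares rest on the total, for with Mir122 left out of it the 5 hairpins held 6.81% in replicate 1 and 8.52% in replicate 2. In such bulk tissue, fewer endothelial cells and less RNA per cell cannot be told apart.

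The opposite-strand pair showed how much the choice of count column matters. Each deposited table counts reads on either strand, on the sense strand and on the antisense strand. Mir126a had 225441 sense reads in replicate 1 and 276110 in replicate 2, but the either-strand column kept 2 and 5 of them. That is 0.000887% (0.000107 to 0.00320) of its sense reads in replicate 1 and 0.00181% (0.000588 to 0.00423) in replicate 2. Mir126b had 0 reads in the either-strand column of both libraries, with 7 sense reads in replicate 1 and 40 in replicate 2.

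The remaining columns mirror each other. Antisense reads of Mir126b numbered 225439 in replicate 1 and 276105 in replicate 2, and antisense reads of Mir126a numbered 7 and 40. The antisense count of Mir126b equalled the sense count of Mir126a less 2 in replicate 1 and 5 in replicate 2, the same numbers that the either-strand column kept for Mir126a. The pair accounted for 225446 reads, or 37.6%, of the 598887 reads that the table of replicate 1 lists as ambiguous, and for 276145 reads, or 40.2%, of the 687224 in replicate 2. In the either-strand column Mir126a stood at rank 441 in replicate 1 and 387 in replicate 2, and the 5 hairpins held 0.626% of its counts in replicate 1 and 0.893% in replicate 2.

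**Figure D2:**
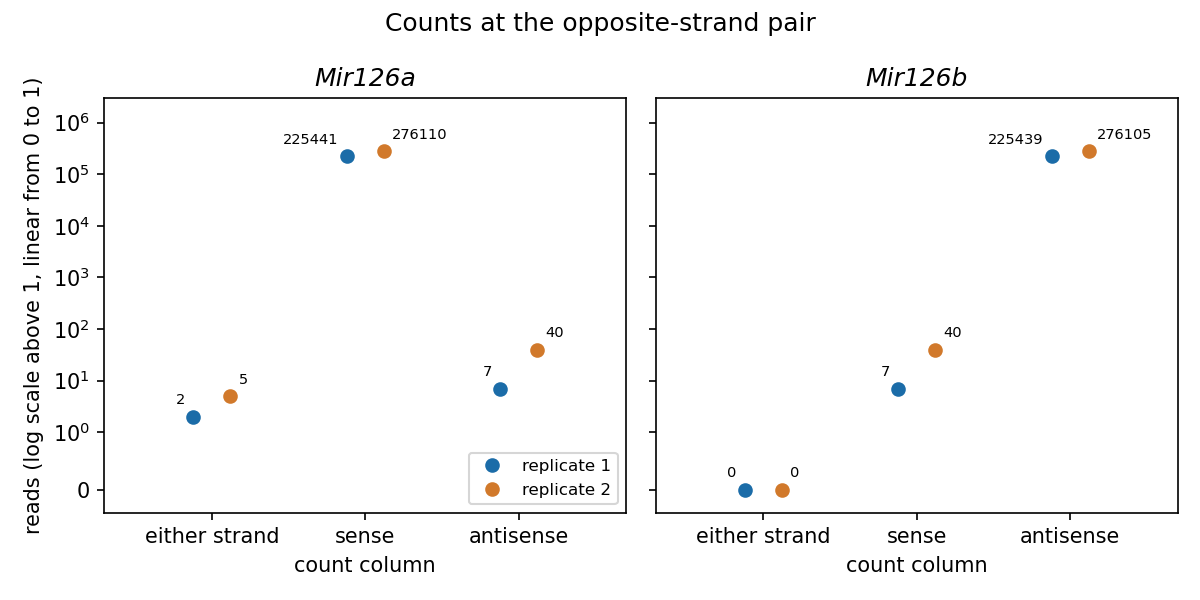
Reads of Mir126a (left) and Mir126b (right) in the either-strand, sense and antisense columns, on an axis that is logarithmic above 1 and linear from 0 to 1, with replicate 1 in blue and replicate 2 in orange. The sense column of Mir126a and the antisense column of Mir126b differ by 2 and 5 reads, while the either-strand columns hold 0 to 5.

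Reads assigned to Mir126b were 0.00310% (0.00125 to 0.00640) of the sense reads of the pair in replicate 1 and 0.0145% (0.0103 to 0.0197) in replicate 2. For comparison, antisense reads made up 0.00171% (0.00127 to 0.00225) of reads in replicate 1 and 0.00218% (0.00174 to 0.00270) in replicate 2 at the 2137 hairpins with no annotated partner on the opposite strand, leaving out Mir203. Mir203 alone had 385 and 571 antisense reads, and with it these shares were 0.0146% and 0.0170%. At 9 such hairpins with at least 100000 sense reads in both libraries, antisense reads ran from 0 to 9 in replicate 1 and from 0 to 12 in replicate 2, with a median of 0 in each. The 7 reads of Mir126b in replicate 1 lay within that range, and its 40 reads in replicate 2 lay above it. The origin of these reads was not tested.

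Between the libraries, Mir126a was nearly level while Mir130a and Mir222 were lower in replicate 1. Reads of each gene with at least 10 sense counts in both libraries were set against the library totals in an exact binomial test, two-sided, with Benjamini-Hochberg adjustment over all 352 such genes. At a threshold of 0.05 the test called 67% of these genes, 36.6% as higher in replicate 1 and 30.4% as higher in replicate 2. It called all 4 of the hairpins that reached 10 counts, against that high background, and weighs counting error alone. Mir126b, with 7 reads in replicate 1, was not tested. Its level in replicate 1 was 0.221 (0.0837 to 0.500) of that in replicate 2, and 0.178 with Mir122 out of the totals.

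Mir126a had a ratio of replicate 1 over replicate 2 of 1.033 (1.028 to 1.039, adjusted p = 3.11e-30 by the exact binomial test). That direction turned with Mir122 out of the totals, where the ratio was 0.830 (0.825 to 0.835). Mir130a stood in replicate 1 at 0.666 (0.653 to 0.679) of its replicate 2 level, Mir221 at 0.925 (0.878 to 0.974, adjusted p = 0.00545 by the exact binomial test) and Mir222 at 0.567 (0.508 to 0.632, adjusted p = 5.77e-26 by the same exact test). Without Mir122 in the totals these ratios were 0.535, 0.743 and 0.455, so the direction of these 3 hairpins held under both totals.

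Taking Mir122 out moved the median detected gene by -0.32 on the log2 scale. It put 71.3% of the genes past the threshold, 21.3% as higher in replicate 1 and 50% as higher in replicate 2, so that 29.9% of the calls were higher in replicate 1, against 54.7% with all gene rows. Relative to the median of the detected genes, the log2 ratio of Mir126a was 0.0082, with 177 detected genes below it and 174 above. The same distance was -0.15 for Mir221, -0.63 for Mir130a and -0.86 for Mir222, and these distances do not depend on which total is used. Mir222 had 47 of the 352 detected genes below it.

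**Figure D3:**
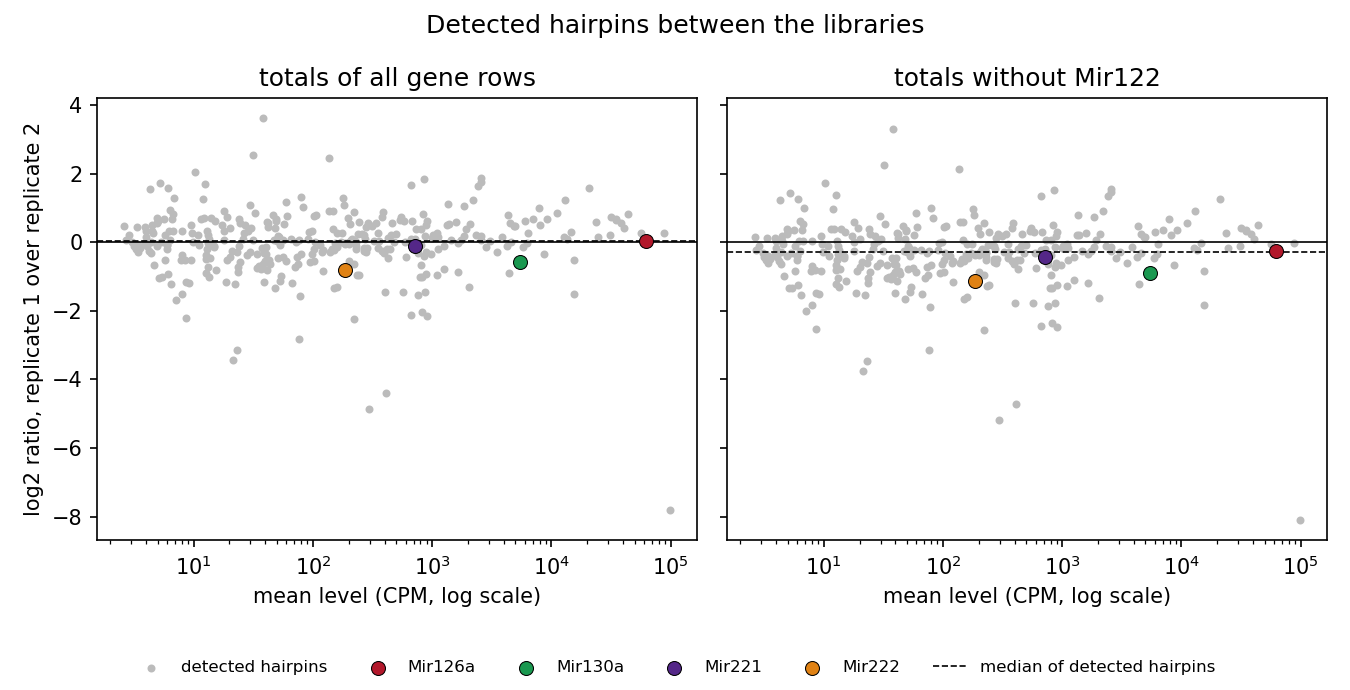
Log2 ratio of replicate 1 over replicate 2 against mean level in CPM on a log axis for the 352 detected hairpins, with totals of all gene rows (left) and without Mir122 (right), the dashed line being their median. Mir126a lies on the median in both panels, and Mir130a and Mir222 lie under it.

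Ratios between hairpins of the same library need no total. Mir126a had 14.3 (14.1 to 14.5) reads for each read of Mir130a in replicate 1 and 9.22 (9.11 to 9.33) in replicate 2. Mir221 had 5.12 (4.64 to 5.66) reads for each read of Mir222 in replicate 1 and 3.14 (2.93 to 3.36) in replicate 2. The intervals of the libraries did not overlap, although both hairpins come from a single locus. Mir130a had 6.39 (6.13 to 6.67) reads for each read of Mir221 in replicate 1 and 8.88 (8.57 to 9.21) in replicate 2. Over the libraries these ratios averaged 11.8 ± 3.60, 4.13 ± 1.40 and 7.64 ± 1.76 (SD, n = 2).

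Markers of other cell types of the vessel wall and blood were set against Mir126a in the same way. The smooth muscle and pericyte hairpins, Mir143 and Mir145a, together had 177809 reads in replicate 1 and 145091 in replicate 2. Mir126a had 1.27 (1.26 to 1.28) reads for each of theirs in replicate 1 and 1.90 (1.89 to 1.92) in replicate 2. Against the 6 leukocyte hairpins, led by Mir146 and Mir342, Mir126a had 12.5 (12.3 to 12.7) reads for each in replicate 1 and 21.5 (21.1 to 21.9) in replicate 2. Against the erythroid pair Mir451a and Mir144 it had 42.2 (41.1 to 43.4) and 48.7 (47.5 to 50.04). The erythroid list also named Mir486a, which is not annotated under that name. Mir486, with 196 sense reads in replicate 1 and 225 in replicate 2, was therefore not counted in it. The endothelial hairpin was thus higher relative to all of these lists in replicate 2, least so for the erythroid pair.

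**Figure D4:**
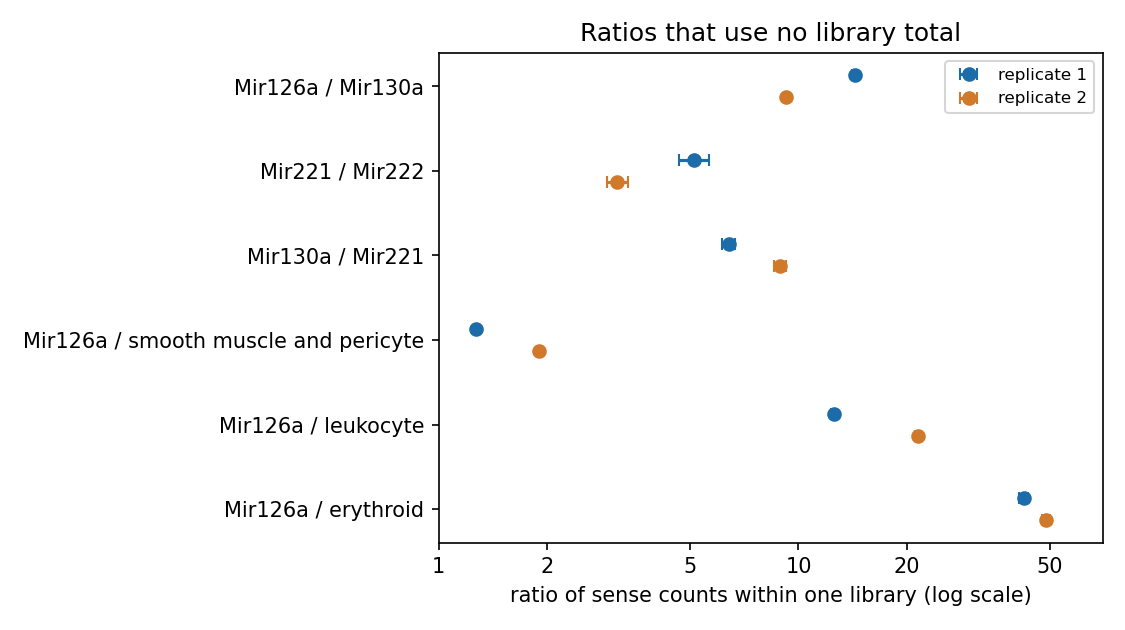
Ratios of sense reads within each library on a log axis, replicate 1 in blue and replicate 2 in orange, with exact 95% intervals, for pairs of endothelial hairpins and for Mir126a over the summed reads of 3 marker lists. Mir126a over Mir130a and Mir221 over Mir222 are higher in replicate 1, and Mir126a over each marker list is higher in replicate 2.

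Further marker lists moved with the libraries, and their part in the endothelial ratios was not tested. The 9 liver hairpins, led by Mir122 and Mir101b, made up 0.204% of replicate 1 and 20.2% of replicate 2. The 6 skeletal muscle hairpins had 3563 reads in replicate 1, nearly all from Mir206 with Mir1a-2 next at 13, and 3 in replicate 2. Their members Mir133a-2 and Mir133b were at 0 in both libraries. Reads that mapped to several places are in no gene row, so low counts of numbered copies such as Mir1a-2 and Mir133a-2 do not show absence. The counts of the 4 fibroblast hairpins did not move together. Mir214 had 890 reads in replicate 1 and 4941 in replicate 2, while Mir199b had 84 and 57 and Mir199a-2 had 31 and 22. The test called Mir214 as higher in replicate 2 and Mir199b as higher in replicate 1, did not call Mir199a-2, and Mir199a-1 was at 0. The limit on numbered copies also holds for Mir199a-1 and Mir199a-2, and was not tested for Mir199b. Of the neuroendocrine list 4 hairpins are annotated under the names used, and they held 4.01% and 3.40%, led by Mir375 and Mir7b.

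Hairpins outside the 5 that share a seed with one of them were less abundant than that member. The seed of miR-130a-3p is carried by 7 hairpins in RefSeq, among them Mir130b and Mir301, whose strands are shown for comparison.
miR-130b-3p: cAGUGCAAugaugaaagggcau
miR-301a-3p: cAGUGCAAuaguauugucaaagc
The first is identical to miR-130a-3p at 20 of 22 positions and the second at 12. Mir130a supplied 92.4% (92.0 to 92.8) of the reads of these 7 hairpins in replicate 1 and 94.3% (94.0 to 94.5) in replicate 2. Mir130b had 221 and 237 CPM, and Mir301 had 140 and 163 CPM, in replicates 1 and 2. Mir130c, Mir721, Mir6341 and Mir6389 had no sense read in either library. Mir301b, listed here as a seed relative, was not returned by the RefSeq seed search and is not among the 7. This neighbour of Mir130b on chromosome 16 had 26 reads in replicate 1 and 6 in replicate 2.

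Mir130b was not called between the libraries (ratio 0.931, adjusted p = 0.179 by the exact binomial test), and Mir301 was called as lower in replicate 1 (ratio 0.855, adjusted p = 0.0109 by the exact binomial test). The difference of Mir130a was in the same direction as both ratios. With Mir122 out of the totals all 3 were called as lower in replicate 1. The seed of miR-221-3p is shared with Mir222 and Mir1928, of which Mir1928 had no sense read. Mir221 supplied 83.7% (82.3 to 85.0) of the reads of these 3 hairpins in replicate 1 and 75.8% (74.6 to 77.1) in replicate 2. Reads were counted over the whole hairpin, so mature strands with another seed are among them.

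Other hairpins known from vessels were taken as a list of 30 names, of which 29 are annotated and 26 were detected. Of these 26, the binomial test called 12 as higher in replicate 1 and 6 as higher in replicate 2, and 8 were not called. Over all detected genes it called 67%, 36.6% as higher in replicate 1 and 30.4% as higher in replicate 2, so the list's 18 calls of 26 are near the background. Their median log2 ratio was 0.066, beside 0.039 for all detected genes. Leaving Mir122 out of the totals gave 7 calls towards replicate 1 and 16 towards replicate 2, beside 21.3% and 50% of all detected genes, with a median of -0.25 beside -0.28 for all. The highest were Mir10a at 43727 CPM ± 17008, a hairpin of the Hox genes, and Mir23b and Mir23a at 35072 CPM ± 10924 and 35072 CPM ± 11492 (SD, n = 2). Each had a mean below that of Mir126a and, with all gene rows in the totals, a larger SD. The comparison of SDs rests on that total, since the SD of Mir126a was 9111 CPM with Mir122 out of it.

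Among the called hairpins of the vascular list, Mir10b was the most raised in replicate 1, with 31262 CPM there and 10544 CPM in replicate 2. Its ratio was 2.96, or 2.38 with Mir122 out of the totals. Mir210, a hairpin induced by low oxygen, was the most raised in replicate 2, with 39.3 CPM in replicate 1 against 116 CPM there. Its ratio of replicate 1 over replicate 2 was 0.339, or 0.272 with Mir122 out of the totals. The hairpins most like Mir126a between the libraries, by the distance of log2 ratios among 70 others with a mean of at least 1000 CPM, were Mir351, Mir17 and Mir107. Their distances were 0.0052, 0.0095 and 0.011. For Mir130a they were Mirlet7d, Mir455 and Mir652, at distances of 0.061, 0.19 and 0.25. With 2 libraries such likeness describes a single ratio per hairpin.

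Among the 5 precursors, Mir126b and Mir130a had the least stable predicted fold per base. The minimum free energy, computed from the RefSeq hairpins, was -31.2 kcal/mol for Mir126a with 27 base pairs and -19.3 kcal/mol for Mir126b with 21. Per base these were -0.427 and -0.333 kcal/mol, against a median of -0.434 over 303 detected hairpins listed in RefSeq. Mir130a had -0.345, Mir221 -0.451 and Mir222 -0.515 kcal/mol per base. All 5 lay within the 5th to 95th percentile of the detected hairpins, -0.588 to -0.317 kcal/mol per base. Of the detected hairpins, 281 were more stable per base than Mir126b and 48 more than Mir222. The level of the 5 hairpins did not follow this order, since Mir222 was the most stable per base while Mir126a led in level.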

How the data were processed

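Raw counts per microRNA gene were deposited by the authors in 3 columns, for reads on either strand, the sense strand and the antisense strand. Reads had been aligned to mm10 and counted on GENCODE M21 genes, per the text files beside the tables. Aligner and trimming: not given in the sources used here. The 4 summary lines name no gene and were left out of totals. They put 31.6% and 27.0% of the input reads of replicates 1 and 2 as mapped to several places, and such reads are in no gene row. The column meanings were read from the values. CPM used the summed sense counts. The binomial test ran over genes with at least 10 sense counts in both libraries. It was also run on simulated counts that varied by counting error alone. Such counts hold no variation between libraries, so they cannot show how the test behaves on these data. With 1 group no edgeR or DESeq2 test of groups exists, and TMM factors (edgeR 4.0.16) and size factors (DESeq2 1.42.0) served as alternative scalings. Folding used RNAfold 2.7.2, and the rest Python 3.11.15, scipy 1.17.1 and R 4.3.3.

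Members and lists were chosen with earlier results of these data known. By rule the text names the 5 members, detected seed relatives, the 3 highest and the most different called hairpins of the vascular list, the 2 highest of each marker list and the 3 hairpins closest in ratio to Mir126a and to Mir130a. Outside that rule, Mir6341, Mir6389 and Mir1928 came from the seed search. Neighbours in level, Mir203, the undetected seed relatives Mir130c, Mir721 and Mir301b, the marker hairpins at 0 and Mir199a-2 were named after their values were seen.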

Additional observations from a re-analysis of the deposited data

Results flagged for a closer look

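The antisense reads of Mir130a were not used in the results above other than within the sum over hairpins without a partner. It had 9 antisense reads in replicate 1 and 11 in replicate 2, 20 in all, above the 3 that a count of 0 allows in each library. They were 0.0571% (0.0261 to 0.108, exact interval) of its reads on both strands in replicate 1 and 0.0367% (0.0183 to 0.0657) in replicate 2. Of 113 hairpins without a partner and with at least 1000 sense reads in both libraries, 4 exceeded 3 antisense reads in both and 103 had none in either. Mir221 had 0 antisense reads of 2463 in replicate 1 and of 3371 in replicate 2, which allows up to 0.122% and 0.0890%. The source of the antisense reads of Mir130a was not tested.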

How the results depend on the processing

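The share of the 5 hairpins, 6.82% as the mean of both libraries, was 7.67% with Mir122 out of the totals, 7.69% without 9 liver-abundant hairpins, 2.92% of all input reads and 0.759% in the either-strand column, and leaving out a library gave 6.80% to 6.84%. The log2 ratio of Mir126a, 0.047, turned to -0.27 without Mir122, -0.27 without the liver-abundant hairpins and -0.045 with all input reads. With DESeq2 size factors it was 0.0069 and no longer called (adjusted p = 0.13 by the exact binomial test). The log2 ratios of Mir130a, Mir221 and Mir222 kept their direction and stayed past the threshold under each scaling run and in the either-strand column. The number of genes called, 236 of 352 tested, was 232 to 251 of 352 over the other scalings, 210 of 323 in the either-strand column, 241 of 567 at a minimum of 1 count and 208 of 267 at a minimum of 50. The share of Mir126a reads kept in the either-strand column was 0.00135% on average and 0.000887% to 0.00181% in single libraries. In the either-strand column Mir126a and Mir126b had too few reads for the test, and the ratio of Mir126a over Mir126b had no value. No paired analysis was possible because the labels give 1 group. With 2 libraries the SDs have little precision, and the 7 reads of Mir126b in replicate 1 bound its level there between 0.784 and 4.02 CPM.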

Other observations

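Of 32 pairs of hairpins annotated on opposite strands of overlapping positions, Mir126a and Mir126b held the most sense reads in both libraries. The pair with the next most reads, Mir378a and Gm25301, had 223736 sense reads in replicate 1 and 265614 in replicate 2 at Mir378a, none of which the either-strand column kept. Among the 21 pairs with at least 100 sense reads in replicate 1, 13 had a smaller share of reads on their minor strand than Mir126b had, as had 15 of 22 pairs in replicate 2. The median share was 0 in both libraries. Most pairs with a smaller share had 0 reads on the minor strand and fewer reads in all. An example is Mir539, with 153 sense reads in replicate 1 and 0 at its partner. A count of 0 allows up to 3, so this order depends on depth and does not rank the true shares. Mir337 and Mir3544, of the imprinted region of chromosome 12, had a minor strand of 0.436% in replicate 1 and 0.896% in replicate 2.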
